A study of Homo sapiens with 4 samples.

Results

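Autophagy is the pathway by which a cell encloses part of its cytoplasm in a double membrane, the autophagosome, and delivers it to the lysosome for breakdown. The ULK1 kinase complex starts the process, a lipid kinase complex marks the membrane, and a conjugation system attaches small ubiquitin-like proteins of the ATG8 family to it, to which cargo receptors bind. TFEB, TFE3 and MITF are related basic helix-loop-helix leucine zipper transcription factors that, when nutrients are scarce, enter the nucleus and activate genes of autophagy and of the lysosome. The genes described here are 38 human genes taken by symbol: 35 of the autophagy machinery and these 3 factors. All 38 matched an Ensembl identifier in the deposited table, of 60617 gene entries in all. They were read in SKNMC, an established human Ewing sarcoma cell line whose tumour type carries an EWSR1-ETS fusion. Cells received 1 µM CBL0137, a DNA-binding curaxin that traps the histone chaperone FACT on chromatin, or its DMSO vehicle, for 24 h. RNA-seq gave 2 libraries per group. Whether these 2 stem from independent cultures is not in the labels, and the p-values cover only the spread between them, which may be technical.

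The libraries held 19625517 to 21061892 reads assigned to genes. Levels are CPM, the reads of a gene per library total after scaling with TMM factors. They are shares of the RNA of many cells, so fewer cells with a transcript and less of it per cell cannot be told apart. All 11 Ewing sarcoma markers that were checked, among them CD99 and FLI1, had at least 1 CPM in every library, with a summed level of 2936 and 2947 CPM with DMSO and 1210 and 1285 with CBL0137. CAV1 (1193 and 1203 CPM, then 254 and 275) and CCK (475 and 459 CPM, then 89.5 and 90.01) made up most of that difference, while FLI1 was between 69.4 and 72.6 CPM in all libraries and NKX2-2 was slightly higher with CBL0137 (30.3 and 35.8 CPM, then 39.8 and 37.5). PRKCB (390 and 392 CPM, then 170 and 174) and CD99 (299 and 279 CPM, then 169 and 189) were lower too. So were NR0B1, STEAP1 and GLI1, while LIPI was higher and the groups of NPY1R overlapped. Of 5 leukocyte markers only PTPRC reached 1 CPM in every library, far above it (162 CPM in both DMSO libraries, then 107 and 124). Of 3 matched endothelial markers only CDH5 did (1.37 and 1.67 CPM, then 2.91 and 3.39). The 4 melanocyte markers summed to between 4.28 and 5.42 CPM, with TYR at 0 in all 4 libraries. Fibroblast markers reached that level in 4 of 5 cases (939 to 947 CPM in sum with DMSO, 1225 and 1232 with CBL0137), where COL1A1 was higher with CBL0137 (127 and 119 CPM, then 471 and 441) but DCN (157 CPM, then 111 and 107) and LUM lower. Epithelial markers reached it in 3 of 5 (51.5 and 52.0 CPM, then 114 and 115). The part of these marker changes in the results was not tested.

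Of the 38 members 36 had enough reads to be tested, and 12 were called: 9 rose and 3 fell with CBL0137. Calls needed an adjusted p under 0.05 in edgeR together with a fold above 1.5, and each log2 ratio is the fitted fold change of CBL0137 over DMSO. The 9 that rose were PIK3C3, MAP1LC3B, ATG4A, ATG2A, ATG14, SQSTM1, AMBRA1, NBR1 and WIPI2, and the 3 that fell were MITF, ATG10 and ATG7. Higher calls thus made up 25% of the tested members, beside 18.2% of all 17374 genes tested, and lower calls 8.33%, beside 15.1%. With no fold limit, 20 of 36 members had an adjusted p under 0.05 and a positive change and 9 of 36 a negative one, beside 30.8% and 30.9% of all genes. The median log2 ratio of the tested members was 0.33, against 0.01 over all genes tested, and ran from -1.12 for MITF to 1.19 for PIK3C3 and MAP1LC3B. Summed over the 36 members, levels came to 1866 and 1892 CPM with DMSO against 2443 and 2395 CPM with CBL0137. Scaling mattered for the count: with library size alone, which moved the median of all genes by 0.16 on the log2 scale, 17 members were called higher and 2 lower.

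**Figure D1:**
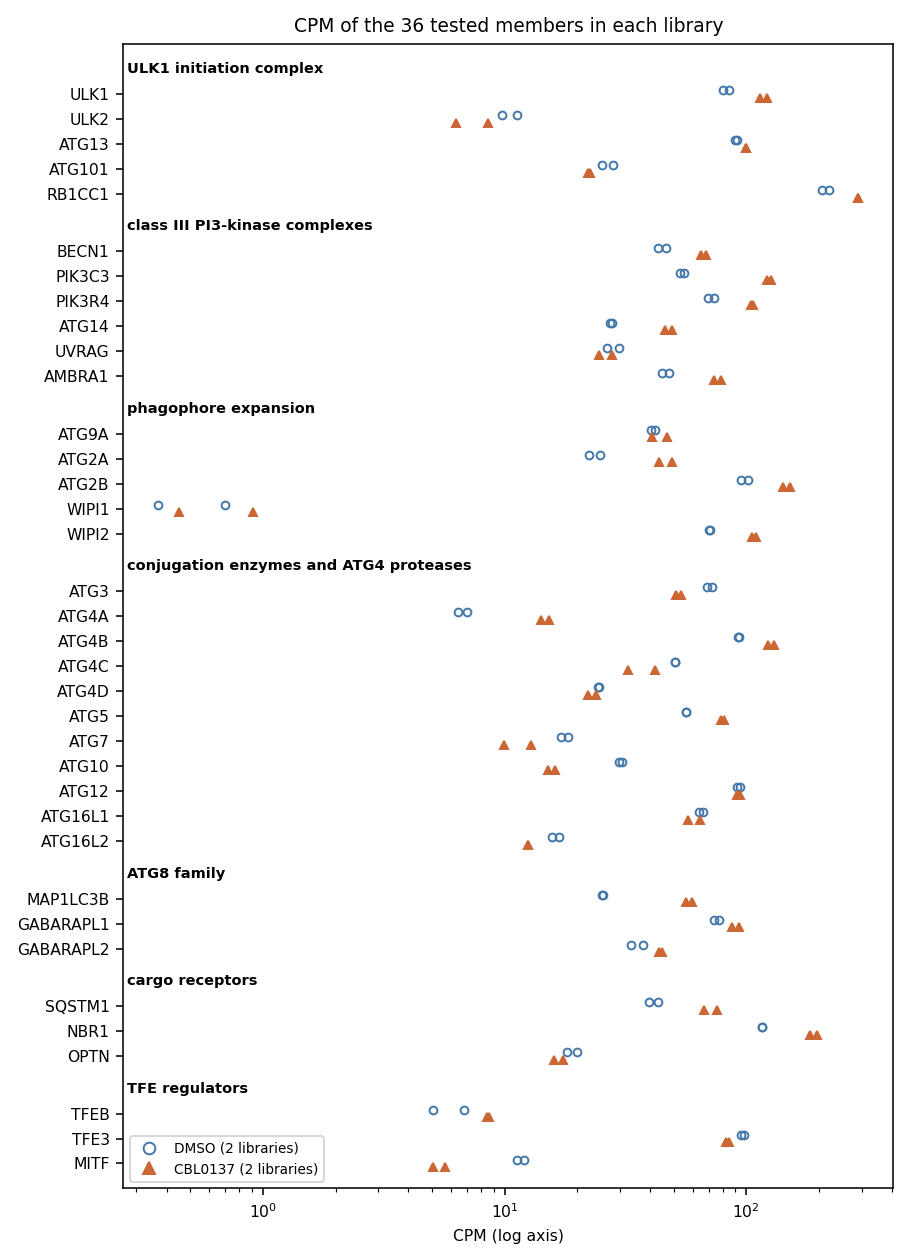
CPM on a log axis (horizontal) for each of the 36 tested members, grouped by role, with open circles for the 2 DMSO libraries and filled triangles for the 2 CBL0137 libraries. PIK3C3, ATG4A and MAP1LC3B show wide gaps to the right, and MITF and ATG10 to the left, while those of ATG12 and UVRAG overlap.

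**Figure D2:**
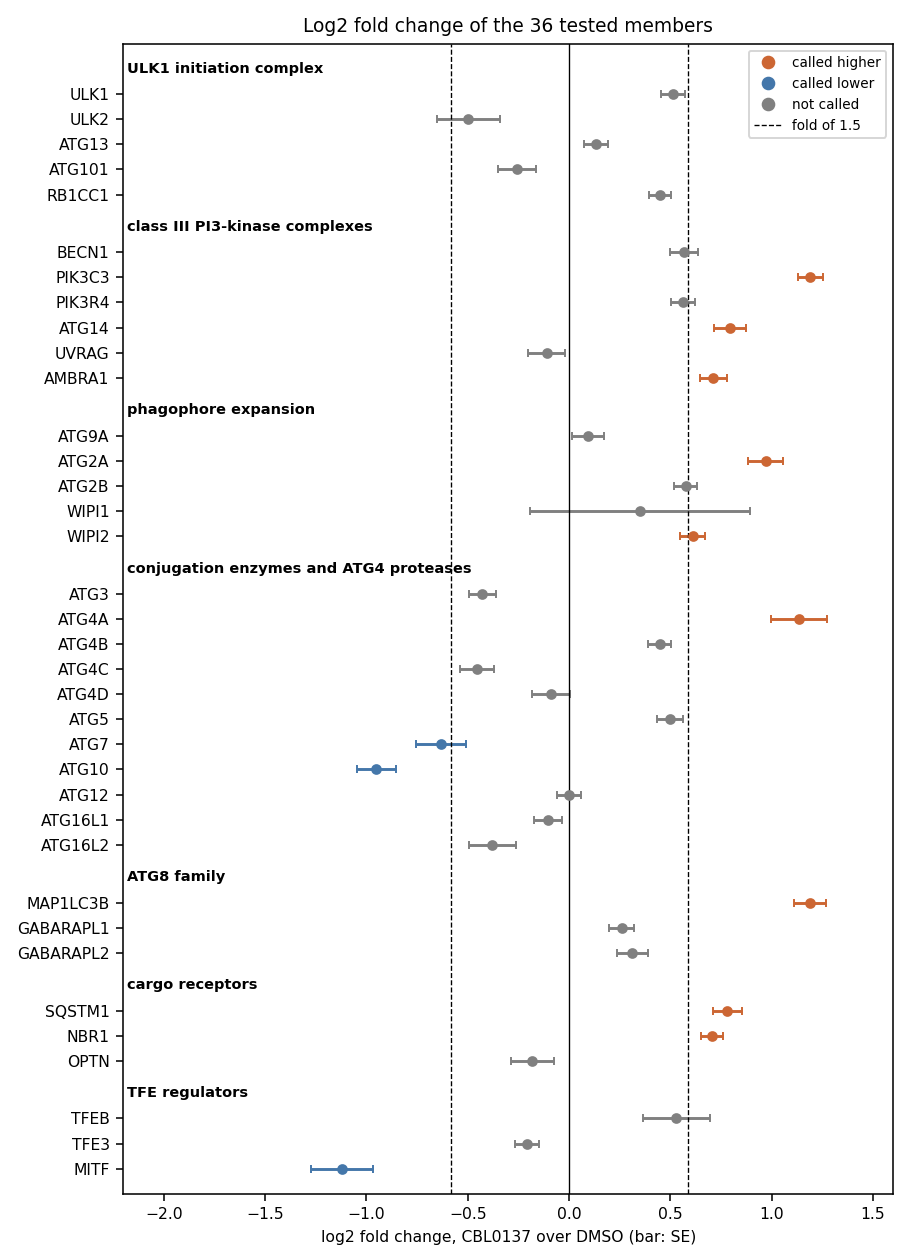
Log2 ratio of CBL0137 over DMSO (horizontal) with its SE as a bar for the 36 tested members. Dashed lines mark a fold of 1.5. The 9 members called higher and the 3 called lower lie outside these lines, and BECN1, PIK3R4 and ATG2B lie just inside the right one.

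The sequence that TFE factors are known to bind is an E-box with flanking bases, so the promoters of the members were searched for its core and for the related M-box of MITF. RefSeq promoters (GRCh38.p14, 250 bases before to 50 after each start) were found for 34 members with 45 starts, and not for RB1CC1, UVRAG, ATG4D and MAP1LC3A. CACGTG, read on both strands, was present for 2 of the 34 members, ATG14 and ATG3, which is 5.88%, beside 8.78% of all 27305 genes with such a promoter. The longer forms TCACGTG and GTCACGTG, which contain it, were in the same 2 members, beside 4.49% and 2.93% of all genes. TCATGTG was found for ATG101 and WIPI2, again 5.88% of members, beside 3.59% of all genes. The stretches before the start that hold these matches are printed 5′ to 3′ on the strand of the gene, with the motif in capitals (for the last pair of genes as its reverse complement). ATG14 and WIPI2 were called higher, whereas ATG3 and ATG101 had negative changes under the fold limit.
ATG14: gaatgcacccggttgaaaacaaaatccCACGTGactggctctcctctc
ATG3: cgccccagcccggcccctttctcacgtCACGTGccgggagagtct
WIPI2: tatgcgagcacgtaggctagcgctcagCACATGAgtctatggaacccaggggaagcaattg
ATG101: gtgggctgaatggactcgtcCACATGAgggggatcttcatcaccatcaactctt
These lie at chr14:55411831-55411878 (minus strand), chr3:112561963-112562007 (minus strand), chr7:5214106-5214166 (plus strand) and chr12:52069728-52069781 (plus strand). The motif begins 21 bases before the start of ATG14, 18 before that of ATG3, 136 before that of WIPI2 and 230 before that of ATG101. ATG3 also holds CACGTG beginning 5 bases after its start, within the searched bases but not printed. A match is a description of the letters and not a bound site.

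None of the 5 genes of the ULK1 initiation complex was called, though all 5 had an edgeR adjusted p under 0.05. Among all genes tested, 30.8% had such a p with a positive change and 30.9% with a negative one. RB1CC1, which encodes the scaffold FIP200, had the highest length-scaled level of the complex over the 4 libraries together, though not with DMSO alone, where ATG101 was near it (deposited FPKM of 20.4 and 22.2 for RB1CC1 and 22.6 and 21.2 for ATG101). RB1CC1 was at 206 and 219 CPM with DMSO and at 290.0 and 289.9 CPM with CBL0137. Its log2 ratio was 0.45 (SE 0.05, adjusted p = 8.7e-10). The kinase gene ULK1 was at 80.3 and 84.5 CPM and then at 122 and 114 CPM, a log2 ratio of 0.51 (SE 0.06). It was called higher in 4 of the 14 other settings that kept the fold limit: library size alone (0.67) and FPKM (0.62 to 0.66). Its value dropped to 0.10 (edgeR adjusted p = 0.12) after a fitted trend on GC content and span of the gene was taken out. ULK2, which encodes a related kinase, went the other way, from 11.3 and 9.72 CPM to 6.33 and 8.54 CPM (log2 ratio -0.50, SE 0.16). The treated libraries of ULK2 differed from each other, and the value moved with single libraries: ULK2 was called lower without CBL0137 replicate 2 (-0.74) or DMSO replicate 2 (-0.61), but was -0.30 (adjusted p = 0.15) without CBL0137 replicate 1 and -0.40 (adjusted p = 0.048) without DMSO replicate 1. The ratio of ULK1 to ULK2 reads, which can be compared between libraries since gene length cancels, was 7.13 and 8.69 with DMSO and 19.3 and 13.3 with CBL0137. An exact permutation test of such a ratio in 2 libraries against 2 cannot give a p under 0.333, so none is given. ATG13 (0.13, SE 0.06) and ATG101 (-0.26, SE 0.09), which encode the adaptor subunits, had smaller values. With that trend removed ATG101 was at -0.64 and called lower, and RB1CC1 at 0.60 and called higher.

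In the class III PI3-kinase complexes, which make phosphatidylinositol 3-phosphate on the forming membrane, 3 of 6 genes rose and 0 fell. Over all genes tested, 18.2% were called higher and 15.1% lower. PIK3C3, the gene of the catalytic subunit VPS34 (ENSG00000078142, GRCh37 plus strand of chromosome 18 from 39535199 to 39667794), was at 52.9 and 55.4 CPM with DMSO and at 126 and 121 CPM with CBL0137. Both treated libraries lay above both controls. Its log2 ratio was 1.19 (SE 0.06, edgeR adjusted p = 2.4e-20), and it was called under all 14 other settings that kept the fold limit. ATG14, whose product directs the kinase to autophagosome formation (ENSG00000126775, minus strand of chromosome 14 from 55833109 to 55878548), went from 27.2 and 27.8 CPM to 46.1 and 49.2 CPM. It rose by 0.79 on the log2 scale (SE 0.08, adjusted p = 1.5e-11), and 20.8% of its exon bases lie over exons of FBXO34 on the opposite strand. AMBRA1, which encodes a BECN1-binding regulator (ENSG00000110497, minus strand of chromosome 11 from 46417964 to 46615675), was at 48.1 and 44.8 CPM and then at 78.5 and 73.7 CPM. Its rise of 0.71 (SE 0.07, adjusted p = 3.8e-12) was not called with the deposited FPKM values (0.50 with a pseudocount of 1, 0.57 with 0.1).

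BECN1 and PIK3R4, which encode the scaffold Beclin 1 and the regulatory subunit VPS15, lay just under the fold limit. BECN1, with the highest FPKM of the complex (21.4 in both DMSO libraries, 38.1 and 33.5 with CBL0137), was at 46.6 and 43.1 CPM and then at 68.4 and 64.6 CPM, a log2 ratio of 0.57 (SE 0.07, edgeR adjusted p = 2.6e-09). The value of PIK3R4 was 0.56 (SE 0.06), from 69.3 and 73.4 CPM to 105 and 106 CPM. BECN1 was called in 8 and PIK3R4 in 7 of the 14 other settings, among them BECN1 without CBL0137 replicate 2 (0.60) or DMSO replicate 1 (0.61) and PIK3R4 without DMSO replicate 2 (0.59). UVRAG, whose product takes the place of ATG14 in a second form of the complex that acts in endosome and autophagosome maturation, was at 26.5 and 29.8 CPM with DMSO and 24.5 and 27.7 CPM with CBL0137. Its groups overlapped (log2 ratio -0.11, SE 0.09, adjusted p = 0.3). The ratio of ATG14 to UVRAG reads was 1.03 and 0.932 in the DMSO libraries against 1.88 and 1.78 after CBL0137.

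Among genes of phagophore expansion, the growth of the cup-shaped membrane, 2 of 5 rose and 0 fell, beside 18.2% and 15.1% of all genes. ATG2A, which encodes a lipid transfer protein (ENSG00000110046, GRCh37 minus strand of chromosome 11 from 64662018 to 64684681), went from 24.9 and 22.4 CPM with DMSO to 49.1 and 43.6 CPM with CBL0137. This is a log2 ratio of 0.97 (SE 0.09, edgeR adjusted p = 4.2e-13). After removal of the trend on GC content and span, ATG2A was at 0.55 and no longer called. Its paralog ATG2B was at 94.6 and 102 CPM and then at 152 and 141 CPM, and its FPKM was above that of ATG2A in every library. The change of ATG2B, 0.58 (SE 0.06), fell just short of the fold limit and passed it in 7 of 14 other settings, such as without CBL0137 replicate 2 (0.62) or DMSO replicate 2 (0.61). WIPI2, which binds the phosphatidylinositol 3-phosphate made by PIK3C3 and brings in ATG16L1 (ENSG00000157954, plus strand of chromosome 7 from 5229827 to 5273471), had the highest FPKM of this group. It was at 71.0 and 69.8 CPM with DMSO and at 109 and 106 CPM with CBL0137, a log2 ratio of 0.61 (SE 0.06, adjusted p = 8e-12) that was just past the limit. WIPI2 was no longer called without DMSO replicate 2 (0.58) or after removal of the GC and span trend (0.49). WIPI1, of the same protein family, was nearly absent, with 0.370 to 0.910 CPM over the 4 libraries and overlapping groups. ATG9A, the gene of the membrane-spanning lipid scramblase, overlapped too (log2 ratio 0.09, SE 0.08). An annotated gene on the same strand covers 38.8% of the ATG9A exon bases, so its reads are uncertain.

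Of the conjugation enzymes and ATG4 proteases 1 of 11 rose (9.09%) and 2 fell (18.2%), beside 18.2% and 15.1% of all genes tested, which is near the background. ATG4A, a protease that trims ATG8 proteins before conjugation and frees them afterwards (ENSG00000101844, GRCh37 plus strand of chromosome X from 107334898 to 107397901), was at 6.98 and 6.45 CPM with DMSO and at 15.3 and 14.2 CPM with CBL0137. It rose by 1.13 on the log2 scale (SE 0.14, edgeR adjusted p = 2e-09). Its paralogs differed from it: ATG4B had 0.45 (SE 0.06), ATG4C -0.45 (SE 0.08) and ATG4D -0.09 (SE 0.09), the last at -0.61 and called lower with the GC and span trend removed. ATG4C was at 50.6 and 50.7 CPM with DMSO but at 32.3 and 41.8 CPM in the CBL0137 libraries, and was called lower without CBL0137 replicate 2 (-0.66), whereas it was at -0.28 without CBL0137 replicate 1. The ratio of ATG4A to ATG4C reads was 0.138 and 0.127 with DMSO and 0.474 and 0.340 with CBL0137.

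ATG10 and ATG7 encode enzymes of the conjugation reactions and both fell. ATG10, the E2-like enzyme for ATG12 (ENSG00000152348, GRCh37 plus strand of chromosome 5 from 81267842 to 81572676), was at 29.8 and 30.7 CPM with DMSO and at 15.1 and 16.2 CPM with CBL0137. Its log2 ratio was -0.95 (SE 0.10, edgeR adjusted p = 2.2e-11). ATG7, the E1-like enzyme that activates both ATG12 and the ATG8 proteins (ENSG00000197548, plus strand of chromosome 3 from 11313995 to 11599139), went from 18.3 and 17.1 CPM to 9.97 and 12.9 CPM, a log2 ratio of -0.63 (SE 0.12, adjusted p = 2.1e-05). This call was the least steady of the 12. It held in 7 of the 14 other settings with the fold limit. Without CBL0137 replicate 1 the value was -0.46, from library sizes alone -0.47, from upper-quartile factors -0.56 and after removal of the GC and span trend -0.54, each under the limit. With FPKM the value of ATG7 was -0.10, since the deposited FPKM values were 3.02 and 2.95 with DMSO and 2.59 and 2.86 with CBL0137. Exons of VGLL4 on the opposite strand cover 18.1% of the ATG7 exon bases.

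The other conjugation genes were not called. ATG3, the E2-like enzyme for the ATG8 proteins and the gene of this group with the highest FPKM over the 4 libraries together (with CBL0137 alone ATG4B was higher), was at 72.1 and 68.7 CPM with DMSO and at 51.0 and 53.6 CPM with CBL0137. Its log2 ratio of -0.43 (SE 0.07, edgeR adjusted p = 4.2e-07) stayed under the fold limit. ATG5, which is joined to ATG12, was at 56.3 and 56.2 CPM and then at 78.5 and 80.6 CPM (0.50, SE 0.06), and was called higher with the GC and span trend removed (0.78). ATG12 itself had nearly equal levels, 91.7 and 93.9 CPM with DMSO and 91.1 and 94.4 CPM with CBL0137 (adjusted p = 1). ATG16L1, whose product places the ATG12-ATG5 conjugate on the membrane, was at -0.10 (SE 0.07) and its paralog ATG16L2 at -0.38 (SE 0.12), the latter at -0.69 and called lower with that trend removed. As fitted on the counts with TMM factors, the 5 members with the smallest change in size were ATG12, ATG4D, ATG9A, ATG16L1 and UVRAG.

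In the ATG8 family 1 of 3 tested genes rose, beside 18.2% of all genes tested. MAP1LC3B, which encodes LC3B, the protein most used as a mark of autophagosomes (ENSG00000140941, GRCh37 plus strand of chromosome 16 from 87417559 to 87438385), was at 25.2 and 25.5 CPM with DMSO and at 59.4 and 56.3 CPM with CBL0137. The log2 ratio was 1.19 (SE 0.08, edgeR adjusted p = 4.6e-17), and the call held in all 14 other settings with the fold limit. GABARAPL1 (77.3 and 73.3 CPM, then 93.2 and 87.1 CPM) and GABARAPL2 (37.5 and 33.5 CPM, then 43.3 and 44.8 CPM) had 0.26 (SE 0.06) and 0.31 (SE 0.08). MAP1LC3A had at most 2 reads in a library and was not tested. GABARAP had only 2 to 6 reads, yet its deposited FPKM values were 42.1 and 40.5 with DMSO and 43.98 and 45.1 with CBL0137, the highest of the family. Another annotated gene on its strand covers 35.4% of the GABARAP exon bases, and 1 on the opposite strand covers 12.8%. The reason for the gap between count and FPKM of GABARAP was not tested. Its FPKM values are given as deposited, with no test.

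On the length-scaled FPKM values, MAP1LC3B made up 6.21% and 6.71% of the family's sum with DMSO and 12.6% and 11.6% with CBL0137. GABARAP held 42.4% and 43.6%, then 36.4% and 36.5%, while GABARAPL1 stayed between 25.6% and 26.7% and GABARAPL2 between 23.9% and 25.7%. The order of the FPKM values in every library was thus GABARAP, GABARAPL1, GABARAPL2 and MAP1LC3B, but with CBL0137 GABARAPL1 and GABARAPL2 differed by less than the SD between libraries.

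**Figure D3:**
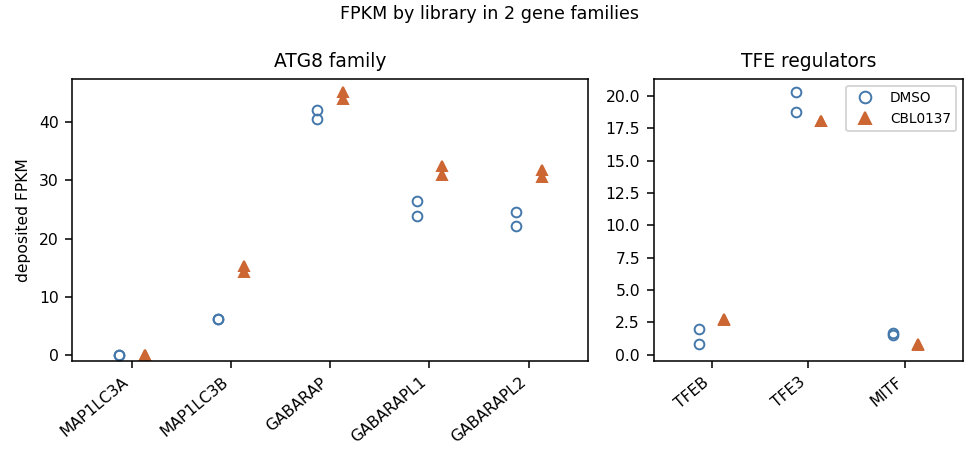
Deposited FPKM (vertical) in each library for the 5 genes of the ATG8 family (left) and the 3 TFE regulators (right), with open circles for DMSO and filled triangles for CBL0137. MAP1LC3B lies near 6 with DMSO and near 15 with CBL0137, below GABARAP, GABARAPL1 and GABARAPL2 in all libraries, and TFE3 lies far above TFEB and MITF.

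Of the cargo receptors, 2 of 3 rose, beside 18.2% of all genes tested. SQSTM1, the gene of p62, which links ubiquitinated cargo to LC3 (ENSG00000161011, GRCh37 plus strand of chromosome 5 from 179233398 to 179265078), was at 39.5 and 43.2 CPM with DMSO and at 75.7 and 66.6 CPM with CBL0137. It rose by 0.78 on the log2 scale (SE 0.07, edgeR adjusted p = 1.9e-12). The value was larger with log2(FPKM + 1), 1.27, where the DMSO libraries had 10.8 and 16.2 FPKM and the CBL0137 libraries 35.8 and 31.3 FPKM. It was 0.57, under the limit, with the GC and span trend removed, and 21.0% of the exon bases lie over MRNIP on the opposite strand. NBR1, a receptor of related build (ENSG00000188554, plus strand of chromosome 17 from 41322498 to 41363708), went from 116 CPM in both DMSO libraries to 196 and 182 CPM, a log2 ratio of 0.70 (SE 0.06, adjusted p = 1.4e-14) that was called in all 14 other settings with the fold limit. OPTN, which encodes the receptor optineurin, was at 18.1 and 19.9 CPM and then at 17.5 and 16.1 CPM (log2 ratio -0.18, SE 0.11, adjusted p = 0.14).

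The 3 TFE regulators did not move together. MITF, known as the master regulator of melanocytes (ENSG00000187098, GRCh37 plus strand of chromosome 3 from 69788607 to 70017487), was at 11.3 and 12.03 CPM with DMSO and at 5.05 and 5.65 CPM with CBL0137. It fell by 1.12 on the log2 scale (SE 0.15, edgeR adjusted p = 3.7e-08). With log2(FPKM + 1) its difference was -0.53 and was not called. Counts per gene do not tell the MITF isoforms apart, which start at different promoters. TFEB (ENSG00000112561, minus strand of chromosome 6 from 41651716 to 41703997) was at 5.08 and 6.77 CPM and then at 8.60 and 8.49 CPM. The log2 ratio of TFEB was 0.53 (SE 0.17, adjusted p = 0.0057), under the fold limit. It varied widely between settings: 0.74 and called without DMSO replicate 2, 0.32 without DMSO replicate 1, 0.17 with the GC and span trend removed, and 1.03 but not called on log2(FPKM + 0.1). TFEB was called in 3 of the 14 settings. TFE3 (ENSG00000068323, minus strand of chromosome X from 48886237 to 48900936) was at 94.6 and 98.1 CPM with DMSO and at 82.3 and 84.4 CPM with CBL0137 (log2 ratio -0.21, SE 0.06, adjusted p = 0.0023).

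On the FPKM scale TFE3 held 88.9% and 84.7% of the sum of the 3 factors with DMSO and 83.7% in both CBL0137 libraries, above the other two in every library. TFEB went from 3.81% and 8.31% to 12.8% and 12.4%, and MITF from 7.30% and 6.96% to 3.56% and 3.88%. On this scale TFEB was below MITF in DMSO replicate 1 and above it in the other 3 libraries. The ratio of TFEB to MITF reads was 0.451 and 0.563 with DMSO and 1.70 and 1.50 with CBL0137, so the groups did not overlap in it. These are transcript levels, and the activity of these factors is set largely by phosphorylation and by their place in the cell, which RNA-seq does not measure.

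Genes of the lysosome that are known TFE targets, 31 of them outside the members, had 19 higher (61.3%) and 1 lower call (3.23%). Over all genes tested these shares were 18.2% and 15.1%. The median log2 ratio of these targets was 0.74, beside 0.01 over all genes. The 3 with the smallest p all rose, with edgeR adjusted p of 1.3e-27, 3.4e-22 and 5.6e-22. CTSF, which encodes the protease cathepsin F, went from 8.67 and 9.19 CPM with DMSO to 68.0 and 66.1 CPM with CBL0137 (log2 ratio 2.91, SE 0.09). NEU1, the gene of a sialidase, went from 31.0 and 29.0 CPM to 93.9 and 85.9 CPM (1.58, SE 0.07). CLCN7, which encodes a lysosomal chloride-proton exchanger, went from 69.6 and 76.1 CPM to 195 and 173 CPM (1.34, SE 0.06). Among the members, MAP1LC3B, SQSTM1, UVRAG and WIPI1 are known TFE targets too, and of these the first and the second were called higher.

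The other lists had calls in both directions. Of 24 tested genes of the remaining core and fusion machinery, 7 rose (29.2%) and 2 fell (8.33%), beside 18.2% and 15.1% of all genes. The median was 0.25, and MAP1LC3B2, among the 7, passed the filter through its treated libraries alone. EPG5, a tether for fusion with the lysosome, rose by 0.82 (SE 0.07, edgeR adjusted p = 2.5e-14), whereas EI24 had -0.87 (SE 0.06) and RUBCNL, which encodes Pacer, -1.12 (SE 0.10). Among 20 tested other cargo receptors and their regulators 4 rose and 2 fell (median -0.19). CALCOCO1, a receptor for the endoplasmic reticulum and Golgi, went from 57.4 and 48.1 CPM to 216 and 191 CPM, a log2 ratio of 1.94 (SE 0.07). TBK1, a kinase that phosphorylates OPTN and p62, rose by 0.93 (SE 0.09), and the mitophagy receptor gene BNIP3 fell by 0.75 (SE 0.07).

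In the list of nutrient control of TFE factors and ULK1, 5 of 35 tested genes rose and 5 fell (14.3% each way, near the background, median 0.02). With library size alone 6 rose and 2 fell. DDIT4 and SESN2, stress-induced inhibitors of the kinase complex mTORC1, fell by 1.88 (SE 0.10) and 1.05 (SE 0.06) on the log2 scale. Other inhibitors of mTORC1 in the list went both ways. SESN1 (0.71, SE 0.12), SESN3 (2.23, SE 0.39) and TSC2 (0.60, SE 0.06, just past the limit) were called higher. TSC1 (0.36) and DEPTOR (0.71, SE 0.33) had positive values and AKT1S1 (-0.47) and TBC1D7 (-0.42) negative ones, none of them called. Besides DDIT4 and SESN2, the lower calls of the list were LAMTOR2 (-0.59), PRKAA1 (-0.59) and PRKAG1 (-0.70). SESN3, among the 5 that rose, had 9 and 13 reads with DMSO, too few to pass the filter without its treated libraries. The direction of SESN3 thus carries little weight. RRAGA, the gene of the GTPase RagA that brings mTORC1 to the lysosome, rose from 38.5 and 44.6 CPM to 89.9 and 84.2 CPM (log2 ratio 1.07, SE 0.07, edgeR adjusted p = 6.7e-17). MTOR itself was at -0.36 (SE 0.05), under the limit. Of 17 tested other transcription regulators of autophagy genes, 2 rose (11.8%) and 1 fell (5.88%), beside 18.2% and 15.1% of all genes (median 0.02). FOXO4 (0.92, SE 0.10) and FOXO1 (0.67, SE 0.08) rose, the latter not without DMSO replicate 1 (0.52), and the stress factor gene ATF4 fell by 0.80 (SE 0.05).

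**Figure D4:**
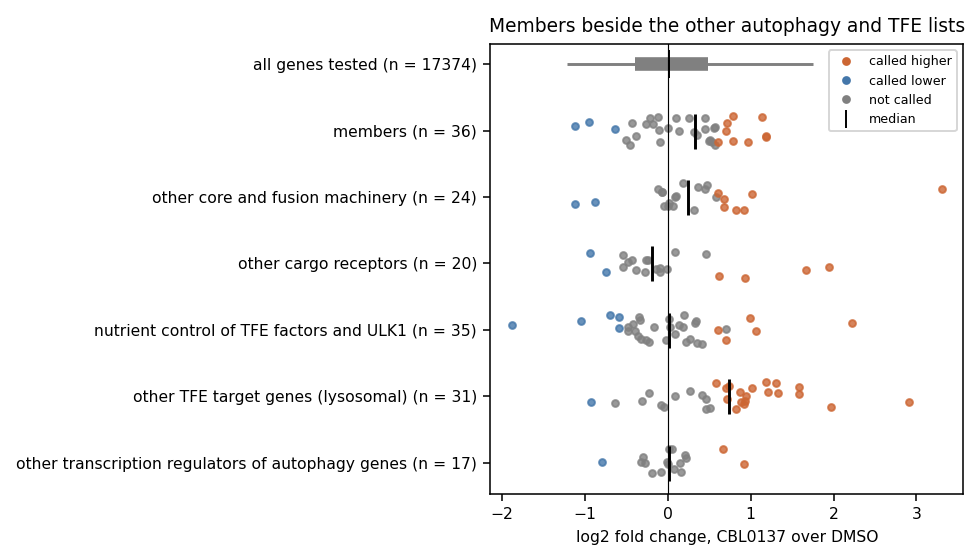
Log2 ratio of CBL0137 over DMSO (horizontal) for the tested members and the genes of 5 other lists, with black ticks at the medians. The top row gives all genes tested, with the thick bar from the 25th to the 75th percentile (-0.40 to 0.49) and the thin line from the 5th to the 95th (-1.22 to 1.75). The lysosomal TFE targets have the median farthest to the right (0.74), and the members (0.33) lie between it and all genes.

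**Figure D5:**
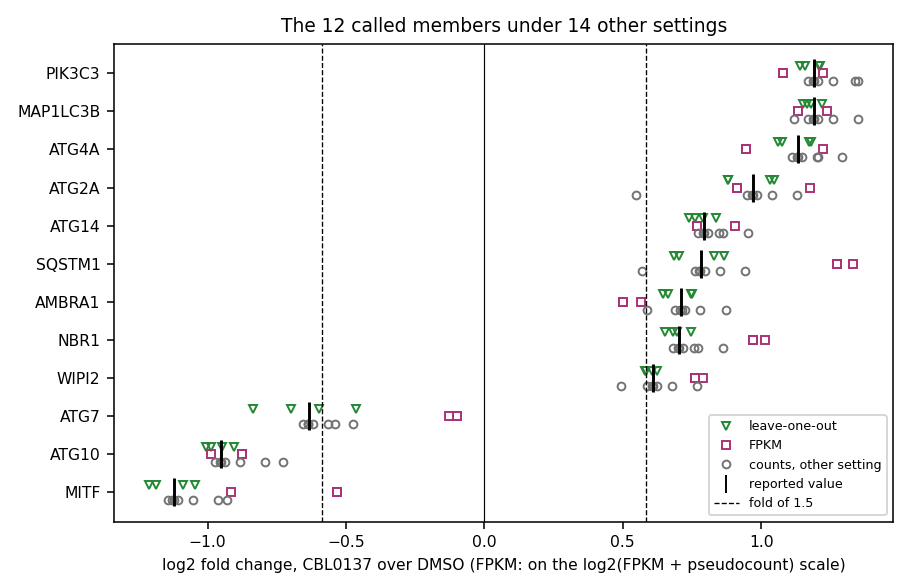
Log2 ratio (horizontal) of the 12 called members as reported (black tick) and under the 14 other settings that kept the fold limit, drawn as triangles (a library left out), squares (FPKM) and circles (other settings on counts). Dashed lines mark a fold of 1.5. PIK3C3, MAP1LC3B, ATG4A, ATG14 and NBR1 stay beyond the line in every setting, while ATG7 crosses back in several.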

How the data were processed

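The deposited table gives raw read counts per gene and FPKM for 4 libraries. HTSeq 0.11.1 made the counts from HISAT2 alignments to hg19 of reads trimmed by Trim Galore. The processing notes also name a mouse build, with no role given. By the series' design text the authors derived FPKM from reads, gene length and depth. FPKM did not follow the counts in every gene: with DMSO, TFEB had 96 and 126 reads but 0.805 and 2.00 FPKM. SQSTM1 had 748 and 804 reads there but 10.8 and 16.2 FPKM. The cause was not tested, and results on FPKM, family shares included, carry this limit. Annotation release and strand setting: not given in the sources used here. Entries that name no gene (6 of them) stayed out of sizes and tests. Among all counted reads, 8.52% to 10.3% lay in no gene and 8.75% to 9.34% in more than 1.

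Counts were tested with edgeR 4.0.16 (quasi-likelihood F test, TMM, filterByExpr, R 4.3.3) across all 17374 genes that passed, with Benjamini-Hochberg adjustment; the script was tested on simulated data. The limits (adjusted p under 0.05, fold above 1.5) are those of the design text. SE is the absolute log2 fold change over the square root of F. A gene passing the filter through its treated libraries alone had to be higher there. Replicates differed by more than sampling noise (chi-square per degree of freedom 3.06 and 2.81) and were kept apart. FPKM was tested with limma 3.58.1 on log2(FPKM + 1) or log2(FPKM + 0.1), with FPKM of at least 1 in 2 libraries, which understates changes of low genes. DESeq2 1.42.0, other scalings and filters, a trend on GC content and gene span (GENCODE on GRCh37, the build of hg19) and leaving out each library were alternatives. Values are given for called members, TFE regulators and the member of highest FPKM per role, with the 5 smallest changes, and for the 3 genes of smallest p in each other list; other genes were named after their values were seen. Members and lists were chosen with earlier results of these data known.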

Additional observations from a re-analysis of the deposited data

How the results depend on the processing

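The members' calls were 9 higher and 3 lower with DESeq2 as well. They were 17 higher with library size alone, 20 higher and 9 lower with no fold limit, and 3 higher and 1 lower with a fold above 2. FPKM gave 12 higher and 1 lower (pseudocount 1), 13 and 2 (pseudocount 0.1) and 11 and 0 (no filter). Removal of the GC and span trend gave 11 higher and 5 lower. Leaving out a library gave 2 to 5 lower, with 5 without CBL0137 replicate 2. The median of the members was positive in every setting run: with library size alone it was 0.49, from upper-quartile factors 0.40, it was 0.44, 0.47 and 0.41 with FPKM (pseudocount 1, pseudocount 0.1, no filter), 0.15 after removal of the GC and span trend and 0.27 to 0.37 with a library left out. Of the 9 higher members, 5 were called in all 14 settings with the fold limit, of the 3 lower ones 0 were, and 13 of the 24 uncalled ones were called in at least 1.

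For all genes called higher and all genes called lower, the counts were 4138 higher and 1877 lower with library size alone. Removal of the GC and span trend gave 2663 and 2959. FPKM gave 1918 and 1518 with a pseudocount of 1, 2370 and 1778 with 0.1, and 1215 and 1057 without its filter. With no fold limit the counts were 5347 and 5375, and with a fold above 2 they were 1988 and 1218.

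With no fold limit the other core and fusion list had 13 higher, other cargo receptors 11 lower, nutrient control 11 higher and 15 lower, lysosomal targets 3 lower and transcription regulators 4 higher and 5 lower. With a fold above 2 the same lists had 2 higher and 1 lower, 2 and 0, 2 and 2, 9 and 0, and 0 and 0. After removal of the GC and span trend there were 4 higher in the core and fusion list, 4 lower among cargo receptors and 3 lower among transcription regulators. FPKM without a filter gave 1 lower in the core and fusion list and among cargo receptors, 2 higher and 2 lower for nutrient control and 1 higher for transcription regulators. Nutrient control had 2 lower under library size alone and for FPKM at either pseudocount, and 3 lower with upper-quartile factors or the stricter filter. With a library left out, cargo receptors had 2 to 4 lower (4 without DMSO replicate 2), nutrient control 3 to 5 higher (3 without DMSO replicate 2) and transcription regulators 1 to 2 higher (1 without DMSO replicate 1).

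Among the members, signs turned only in uncalled ones. With library size alone UVRAG was at 0.0478, ATG4D at 0.0694, ATG12 at 0.159 and ATG16L1 at 0.0555. After removal of that trend UVRAG was at 0.0856, ATG9A at -0.28 and ATG12 at 0.13. ATG12 was at 0.068 with upper-quartile factors and 0.0139 with the stricter filter. With FPKM, UVRAG was at 0.0005 (pseudocount 0.1), WIPI1 at -0.0484 (no filter), ATG16L1 at 0.0027 (pseudocount 1, and with no filter) and 0.0026 (pseudocount 0.1), and ATG16L2 at 0.0698 (pseudocount 1, and with no filter) and 0.0962 (pseudocount 0.1). With a library left out ATG9A ran from -0.0177 to 0.192, WIPI1 from -0.24 to 0.85 and ATG12 from -0.0349 to 0.0232. The causes were not tested.

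With the replicate number as a block 9 members were called higher and 3 lower, with 3129 for all genes called higher and 2612 for all genes called lower. Deviations of same-numbered libraries from their group means correlated at 0.019, so the numbers were not taken to pair the samples. With 2 libraries per group, changes near the fold limit cannot be placed on either side with confidence, and WIPI1 and MAP1LC3A had too few reads to judge.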

Other observations

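Some genes of the other lists were chosen for mention after their values were seen. PINK1, the kinase that marks damaged mitochondria for autophagy, rose from 5.92 and 3.17 CPM with DMSO to 16.4 and 12.7 CPM with CBL0137 (log2 ratio 1.67, SE 0.18). Exons of PINK1-AS on the opposite strand cover 39.5% of the PINK1 exon bases. With DMSO PINK1 had 112 and 59 reads but 6.17 and 6.71 FPKM, so counts and FPKM did not go together there. MAP1LC3B2, a gene whose product is nearly identical to LC3B, went from 0.476 and 0.269 CPM to 3.46 and 4.02 CPM (3.305, SE 0.38), and reads of such a close copy cannot be assigned with certainty. MAP1LC3B2 had 9 and 5 reads with DMSO, passed the filter through its treated libraries alone and so had to be higher there.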
